A study of Homo sapiens with 21 samples.

Results

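The genes described here code for 10 enzymes that make serine, asparagine, proline, cysteine and one-carbon units: PHGDH, PSAT1, PSPH, SHMT2, MTHFD2, ALDH1L2, ASNS, ALDH18A1, PYCR1 and CTH. They were chosen by name, as the rows of the gene count table whose Ensembl identifiers carry these symbols. Each symbol matched 1 row, so that the set is 10 of the 60671 genes of the table and 10 of the 14012 genes that were tested. RNA was measured in 21 libraries, 3 in each of 7 groups. OCI-AML3 is an acute myeloid leukaemia line that carries mutations in DNMT3A and NPM1, and its cells were untreated (0 h), treated with DMSO for 4 h or 24 h, or given tunicamycin (1 μg/mL) for 4 h or 24 h. HEK293T is a line from human embryonic kidney that carries the SV40 large T antigen, and its cells were given DMSO or the same dose of tunicamycin for 24 h. HEK293T cells at 4 h and untreated HEK293T cells were not analysed here. DMSO is the solvent control. OCI-AML3 cells were grown in RPMI and HEK293T cells in DMEM, so that the line and the medium cannot be told apart. The labels do not say that replicates were separate cultures, so that p-values measure only the spread between these libraries, which may be technical.

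Tunicamycin blocks the N-glycosylation of proteins in the endoplasmic reticulum (ER), and the misfolded proteins that result switch on the unfolded protein response. Its PERK branch phosphorylates eIF2α, which lowers general protein synthesis but favours the translation of ATF4, a transcription factor of genes for amino acid synthesis and transport and for the charging of tRNAs. PHGDH, PSAT1 and PSPH make serine from a glycolytic intermediate, and in mitochondria SHMT2, MTHFD2 and ALDH1L2 move a carbon of serine onto folate and then oxidise it. ASNS makes asparagine, ALDH18A1 and PYCR1 stand at the start and the end of the route from glutamate to proline, and CTH makes cysteine at the last step of transsulfuration.

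Libraries held between 13838480 and 19961819 counts. The identity of the lines was checked against marker lists. The summed level of 10 blood and myeloid genes was 841 to 1055 CPM (counts scaled to the size of the library) in OCI-AML3 and 101 to 146 CPM in HEK293T, and the summed level of 9 epithelial and embryonic kidney genes was 6.59 to 9.13 CPM in OCI-AML3 and 197 to 207 CPM in HEK293T. Of the blood genes CD34 was under 1 CPM in every OCI-AML3 library, and KRT19 was under 1 CPM in every HEK293T library. In HEK293T only HOXA9 and MEIS1 of the 10 blood genes reached 1 CPM, and HOXA9 was higher there with DMSO (127 CPM) than in OCI-AML3 (59.2 CPM at 24 h). A pair of libraries stood apart from their groups for several of the 10 genes. Replicate 1 of OCI-AML3 with DMSO for 4 h was the highest of its group for 7 of them, and replicate 3 of OCI-AML3 with tunicamycin for 24 h was the lowest of its group for 8. The latter had a TMM scaling factor of 1.00, against 0.923 and 0.931 in the other libraries of its group, and 2.45% of its counts were mitochondrial, against 1.82% and 1.86%. For the former the factor was 0.946, against 0.995 and 0.995, and the mitochondrial share 1.87%, against 2.41% and 2.45%. The results were computed with and without these libraries, a choice made after the levels of the 10 genes were seen.

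Each tunicamycin group was compared with the DMSO group of the same line and time, to ask how the 10 genes moved under ER stress. Of the 10 genes, 9 rose in all 3 comparisons, and ALDH18A1 rose in none. The study's methods set the thresholds on an adjusted p (Benjamini-Hochberg) no higher than 0.05 and a change of more than 1 on the log2 scale. Past both, 7 of 10 genes rose in OCI-AML3 at 4 h, where 3.45% of all genes tested did. In OCI-AML3 at 24 h 5 of 10 rose past both thresholds (4.05% of all genes), and in HEK293T at 24 h 7 of 10 did (1.58%). By the adjusted p alone 9 of 10 were higher in each comparison, against 18.5%, 23.5% and 12.6% of all genes. Their log2 fold changes had medians of 1.74, 0.94 and 1.26, in that order, against -0.02, -0.01 and -0.01 over all genes tested. For these 9 genes every tunicamycin library lay above every DMSO library in each comparison, which was so for 22.9%, 25.0% and 23.4% of all genes. Levels are given in CPM after TMM scaling, fold changes with their 95% interval, and p-values from the quasi-likelihood test of edgeR, adjusted over all genes tested.

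**Figure D1:**
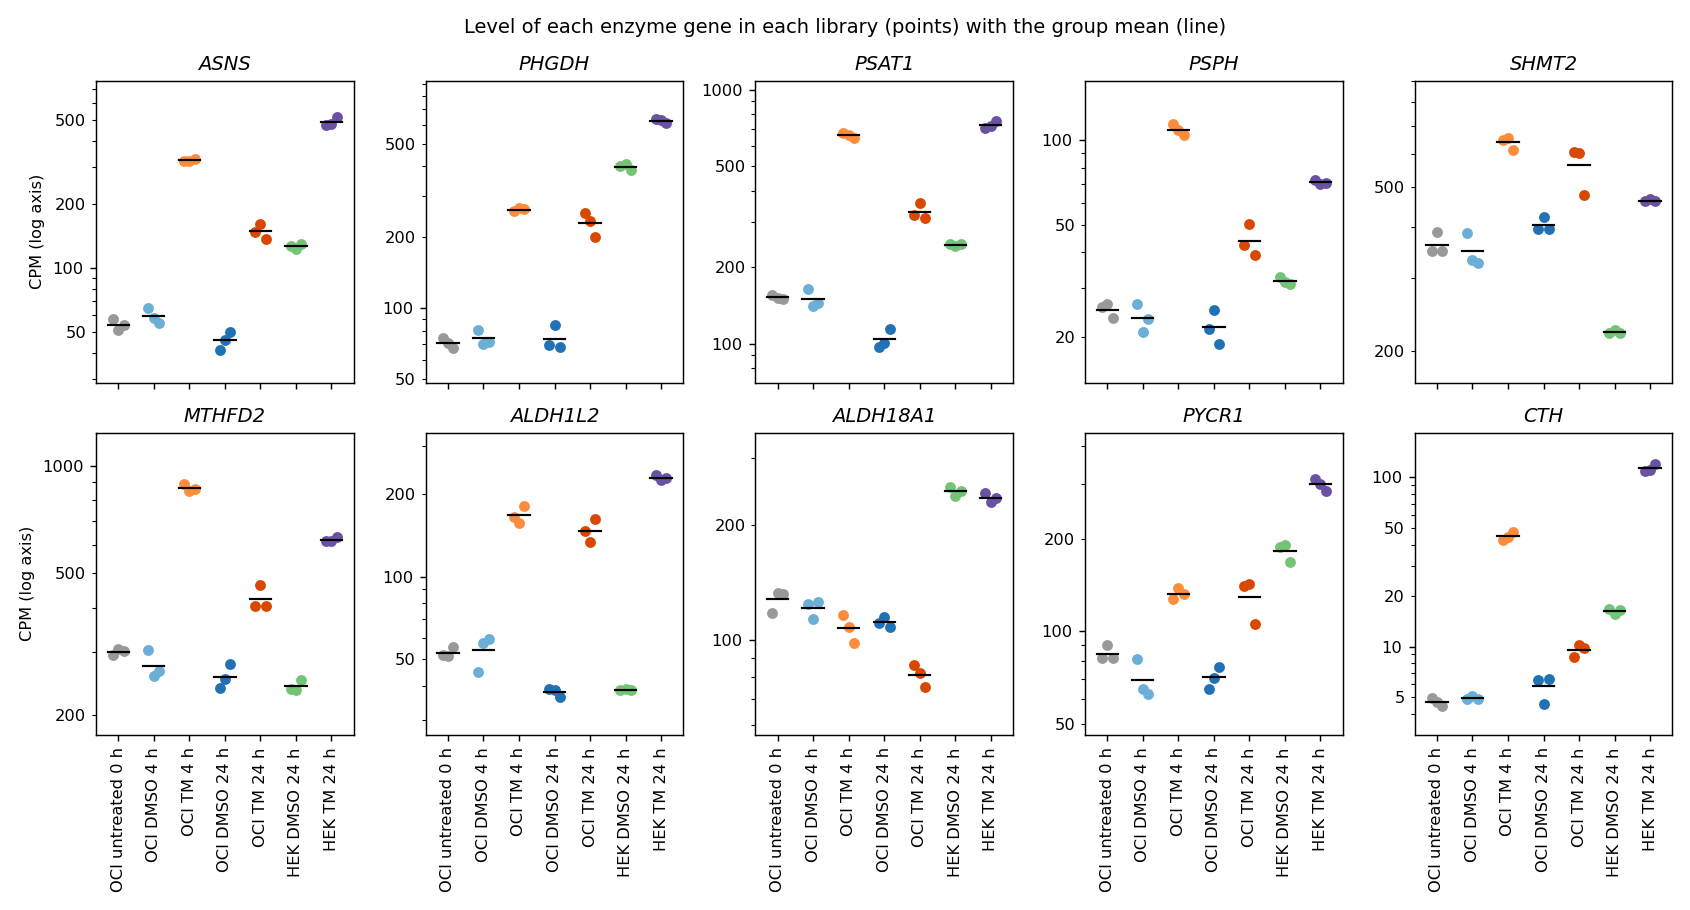
Level of each of the 10 genes in CPM (log axis, a scale of its own for each gene) in the 21 libraries, by group; points are libraries and lines are the means of 3. Tunicamycin libraries lie above the DMSO libraries of the same line and time for every gene but ALDH18A1, which was 81.0 CPM on average with tunicamycin at 24 h in OCI-AML3 and 111 CPM with DMSO.

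The 3 genes of serine synthesis rose together in OCI-AML3 at 4 h, by 3.54-fold (PHGDH), 4.42-fold (PSAT1) and 4.67-fold (PSPH). PHGDH (ENSG00000092621, chr1:119648411-119744218 on GRCh38, plus strand) codes for phosphoglycerate dehydrogenase, the first enzyme of the route. Its level at 4 h was 80.5, 70.5 and 71.5 CPM with DMSO and 257, 267 and 262 CPM with tunicamycin. At 24 h in OCI-AML3 it was 69.6, 84.4 and 68.1 CPM with DMSO and 252, 234 and 201 CPM with tunicamycin. In HEK293T it was 401, 411 and 387 CPM with DMSO and 635, 633 and 612 CPM with tunicamycin. The groups did not overlap in any comparison, and the HEK293T libraries with DMSO were above every OCI-AML3 library, those with tunicamycin included. The rise was 3.54-fold (95% interval 3.14 to 3.99, adjusted p = 5.6e-14) at 4 h. It was 3.09-fold (95% interval 2.74 to 3.49, adjusted p = 5.3e-13) at 24 h and 1.57-fold (95% interval 1.40 to 1.76, adjusted p = 1.6e-06) in HEK293T, where it did not reach the fold threshold.

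PSAT1 (ENSG00000135069, chr9:78297125-78330093 on GRCh38, plus strand) codes for phosphoserine aminotransferase, the second enzyme, which takes its amino group from glutamate. At 4 h the level was 164, 141 and 145 CPM with DMSO and 676, 662 and 646 CPM with tunicamycin. In OCI-AML3 at 24 h it was 97.4, 101 and 115 CPM with DMSO and 320.4, 358 and 313 CPM with tunicamycin, and in HEK293T 246, 244 and 247 CPM with DMSO and 703, 719 and 750.0 CPM with tunicamycin. Again no groups overlapped, and the libraries with tunicamycin at 24 h in OCI-AML3 lay well below those at 4 h. PSAT1 rose 4.42-fold (95% interval 3.99 to 4.89, adjusted p = 1.3e-16) at 4 h, 3.17-fold (95% interval 2.86 to 3.51, adjusted p = 1.8e-14) at 24 h and 2.95-fold (95% interval 2.67 to 3.25, adjusted p = 4.6e-14) in HEK293T.

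PSPH (ENSG00000146733, chr7:56011051-56051604 on GRCh38, minus strand) codes for phosphoserine phosphatase, which releases free serine at the last step, and was the lowest of the 3 genes per length in every group. It ranged from 20.8 to 26.2 CPM with DMSO and from 104 to 114 CPM with tunicamycin at 4 h. At 24 h in OCI-AML3 the ranges were 18.9 to 24.9 CPM and 39.3 to 50.3 CPM, and in HEK293T they were 30.9 to 32.7 CPM and 70.2 to 72.3 CPM. PSPH rose 4.67-fold (95% interval 4.05 to 5.38, adjusted p = 2.7e-14) at 4 h. Its rise was 2.02-fold (95% interval 1.75 to 2.33, adjusted p = 3.5e-08) at 24 h, just past the fold threshold, which it missed with every gene of at least 1 count (log2 fold change 0.99), without replicate 3 of DMSO at 24 h (0.97) or without replicate 2 of tunicamycin at 24 h (0.96). It was 2.24-fold (95% interval 1.95 to 2.56, adjusted p = 2.5e-09) in HEK293T.

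The 3 genes of the mitochondrial one-carbon route rose by different amounts. SHMT2 (ENSG00000182199, chr12:57229573-57234935 on GRCh38, plus strand) codes for the mitochondrial serine hydroxymethyltransferase, which splits serine into glycine and a folate-bound carbon. It ranged from 327 to 387 CPM with DMSO and from 613 to 657 CPM with tunicamycin at 4 h, and rose 1.84-fold (95% interval 1.64 to 2.06, adjusted p = 9.2e-09). In OCI-AML3 at 24 h the ranges were 395 to 423 CPM and 478 to 608 CPM, where replicate 3 with tunicamycin was the lowest, and SHMT2 rose 1.39-fold (95% interval 1.24 to 1.56, adjusted p = 3.4e-05). In HEK293T they were 221 to 225 CPM and 461 to 466 CPM, and it rose 2.08-fold (95% interval 1.85 to 2.33, adjusted p = 8.8e-10). SHMT2 thus passed the fold threshold in HEK293T and not in OCI-AML3.

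MTHFD2 (ENSG00000065911, chr2:74186172-74217565 on GRCh38, plus strand) codes for the mitochondrial methylenetetrahydrofolate dehydrogenase and cyclohydrolase, the enzyme after SHMT2. Its level at 4 h was 304, 257 and 265 CPM with DMSO and 889, 849.9 and 862 CPM with tunicamycin. At 24 h in OCI-AML3 it was 239, 252 and 278 CPM with DMSO and 405, 462 and 405 CPM with tunicamycin, and in HEK293T 236, 236 and 250.4 CPM with DMSO and 614, 616 and 631 CPM with tunicamycin. The DMSO libraries of both lines covered about the same range, whereas the tunicamycin libraries of the 3 groups were all apart from each other. MTHFD2 rose 3.15-fold (95% interval 2.84 to 3.49, adjusted p = 1.5e-14) at 4 h, 1.65-fold (95% interval 1.50 to 1.83, adjusted p = 2.0e-08) at 24 h and 2.57-fold (95% interval 2.33 to 2.85, adjusted p = 7.4e-13) in HEK293T.

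ALDH1L2 (ENSG00000136010, chr12:105019784-105107643 on GRCh38, minus strand) codes for the mitochondrial formyltetrahydrofolate dehydrogenase, which oxidises the carbon to CO2 with the formation of NADPH. At 4 h the level was 45.1, 57.5 and 59.3 CPM with DMSO and 164, 157 and 181 CPM with tunicamycin. In OCI-AML3 at 24 h it was 39.1, 38.5 and 36.5 CPM with DMSO and 146, 133 and 161 CPM with tunicamycin, and in HEK293T 38.6, 39.0 and 38.6 CPM with DMSO and 234, 225 and 229 CPM with tunicamycin. The lines had nearly the same DMSO level at 24 h, and the HEK293T libraries with tunicamycin were above all others. ALDH1L2 rose 3.10-fold (95% interval 2.74 to 3.50, adjusted p = 6.3e-13) at 4 h, 3.87-fold (95% interval 3.41 to 4.39, adjusted p = 5.2e-14) at 24 h and 5.92-fold (95% interval 5.22 to 6.72, adjusted p = 4.6e-16) in HEK293T. At 24 h in OCI-AML3 its rise had the largest estimate of the 10 genes. Its exons share 131 bases on the opposite strand with WASHC4, whose count reached 194% of that of ALDH1L2 in a library, and 145 with NOPCHAP1 (79.3%), and whether counting used the strand is not given in the sources used here. Of the other genes MTHFD2 shares 1324 such bases with SLC4A5, whose count was at most 5.24% of that of MTHFD2 in a library, PYCR1 shares 450 with the lncRNA ENSG00000263585 (at most 8.53%) and SHMT2 shares 352 with the lncRNA ENSG00000276727 (at most 0.166%).

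ASNS (ENSG00000070669, chr7:97851677-97872542 on GRCh38, minus strand) codes for asparagine synthetase, which transfers nitrogen from glutamine to aspartate. Its promoter is a textbook case of a nutrient-sensing response element, and both parts of that element lie in the 30 bases shown here, 70 to 41 bases before the RefSeq start (GRCh38.p14, minus strand, chr7:97872449-97872478), with the C/EBP-ATF element TGATGNAA and the second element GTTACA in capitals:
ASNS: caTGATGAAActtcccgcacgcGTTACAgg
RefSeq promoter entries, from 250 bases before to 50 after the start, were matched for 6 of the 10 genes (ASNS, PHGDH, PSAT1, MTHFD2, ALDH18A1 and CTH). Only the first entry of each of these genes was searched, whereas the shares of all promoters count every entry. The windows of PHGDH (chr1:119711684-119711983) and MTHFD2 (chr2:74198365-74198664) lie well inside the gene positions given here, so that other starts of these genes were not searched. Both strands were searched. TGATGNAA was found in 1 of the 6, ASNS, and in 3.62% of 35116 promoters. GTTACA was likewise found only in ASNS of the 6 and in 6.66% of all promoters. The palindromic cAMP response element TGACGTCA was found in none of the 6 and in 1.85% of all. Such a match describes letters in this window and not a site of binding.

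The level of ASNS at 4 h was 65.2, 58.2 and 55.3 CPM with DMSO and 322, 322 and 328 CPM with tunicamycin. In OCI-AML3 at 24 h it was 41.0, 45.7 and 50.2 CPM with DMSO and 149, 161 and 138 CPM with tunicamycin, and in HEK293T 127, 124 and 130.2 CPM with DMSO and 473, 478 and 518 CPM with tunicamycin. The groups were apart in each comparison, and the HEK293T libraries with DMSO were nearly as high as the OCI-AML3 libraries with tunicamycin for 24 h. ASNS rose 5.44-fold (95% interval 4.86 to 6.09, adjusted p = 7.8e-17) at 4 h, 3.27-fold (95% interval 2.92 to 3.67, adjusted p = 7.2e-14) at 24 h and 3.85-fold (95% interval 3.46 to 4.29, adjusted p = 4.0e-15) in HEK293T. ASNS was the only one of the 10 genes whose deposited counts were not whole numbers in all 21 libraries. It shares 2415 exon bases on its own strand with the lncRNA ENSG00000284707, which held up to 28.2% of the ASNS count of a library. With the counts of both added, the log2 fold changes were 2.23, 1.60 and 1.88.

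The proline route divided. ALDH18A1 (ENSG00000059573, chr10:95605941-95656711 on GRCh38, minus strand) codes for the synthase of pyrroline-5-carboxylate, the first enzyme from glutamate to proline, and was the gene of the set that did not rise. Its level at 4 h was 124, 113 and 126 CPM with DMSO and 116, 108 and 98.2 CPM with tunicamycin, and the groups overlapped. At 24 h in OCI-AML3 it was 111, 115 and 108 CPM with DMSO and 85.8, 82.0 and 75.2 CPM with tunicamycin, with every tunicamycin library below every DMSO library. In HEK293T it was 252, 237 and 246 CPM with DMSO and 242, 229 and 235 CPM with tunicamycin, and the groups overlapped. The log2 fold change at 4 h was -0.17 (95% interval -0.32 to -0.03, adjusted p = 0.054). It passed the threshold on adjusted p under some alternatives, with an adjusted p from 0.022 to 0.26 over all of them. At 24 h ALDH18A1 fell by 0.46 on the log2 scale (95% interval -0.61 to -0.32, adjusted p = 1.2e-05), where 27.7% of all genes were lower by the adjusted p. In HEK293T its log2 fold change was -0.06 (95% interval -0.20 to 0.08, adjusted p = 0.59). The promoter of ALDH18A1 is shown as well, from 148 to 119 bases before the start (GRCh38.p14, minus strand, chr10:95656830-95656859). These 30 bases hold an E-box, CACGTG, in capitals:
ALDH18A1: gggctggcccgcCACGTGgagcgctggctt
Of the 6 promoters only that of ALDH18A1 held this motif, which was found in 7.26% of all promoters. Whether the motif bears on the response of ALDH18A1 was not tested.

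PYCR1 (ENSG00000183010, chr17:81932384-81942412 on GRCh38, minus strand) codes for the mitochondrial pyrroline-5-carboxylate reductase, which makes proline at the end of the route. At 4 h the level was 81.0, 64.6 and 62.5 CPM with DMSO and 127, 138 and 132 CPM with tunicamycin. In OCI-AML3 at 24 h it was 64.9, 70.5 and 76.7 CPM with DMSO and 140.1, 142 and 105 CPM with tunicamycin, and in HEK293T 188, 191 and 168 CPM with DMSO and 313, 299.9 and 286 CPM with tunicamycin. The highest DMSO library at 4 h and the lowest tunicamycin library at 24 h are those that stood apart. PYCR1 rose 1.91-fold (95% interval 1.64 to 2.21, adjusted p = 2.1e-07) at 4 h, 1.83-fold (95% interval 1.57 to 2.12, adjusted p = 4.9e-07) at 24 h and 1.64-fold (95% interval 1.42 to 1.90, adjusted p = 9.9e-06) in HEK293T. Without that pair of libraries its log2 fold change was 1.07 at 4 h and 1.04 at 24 h, so that 8 and 6 of the 10 genes were past both thresholds. Since the pair was picked by the levels of these same genes, a high control and a low treated library, its removal raises the fold changes by construction, and nothing is read from these counts. Per length, the ratio of PYCR1 to ALDH18A1 was 0.847 ± 0.113 (SD, n = 3) with DMSO and 1.83 ± 0.185 with tunicamycin at 4 h, and 0.939 ± 0.0951 and 2.35 ± 0.254 at 24 h.

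CTH (ENSG00000116761, chr1:70411218-70439851 on GRCh38, plus strand) codes for cystathionine gamma-lyase, which releases cysteine from cystathionine. Per length it had the lowest level of the 10 genes in each OCI-AML3 group, and its rise had the largest estimate at 4 h and in HEK293T. Its level at 4 h was 4.92, 5.12 and 4.86 CPM with DMSO and 42.9, 44.3 and 47.6 CPM with tunicamycin. At 24 h in OCI-AML3 it was 6.38, 4.60 and 6.47 CPM with DMSO and 8.71, 10.2 and 9.80 CPM with tunicamycin, and in HEK293T 16.7, 15.6 and 16.5 CPM with DMSO and 109, 111 and 119.6 CPM with tunicamycin. The libraries with tunicamycin at 24 h in OCI-AML3 were above their controls but below every DMSO library of HEK293T. CTH rose 9.04-fold (95% interval 7.81 to 10.5, adjusted p = 7.8e-17) at 4 h, 1.65-fold (95% interval 1.40 to 1.95, adjusted p = 1.9e-05) at 24 h and 6.94-fold (95% interval 6.13 to 7.85, adjusted p = 8.8e-17) in HEK293T. Ranked by log2 fold change among the 14012 genes tested it stood at place 35 at 4 h, 1178 at 24 h and 30 in HEK293T.

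**Figure D2:**
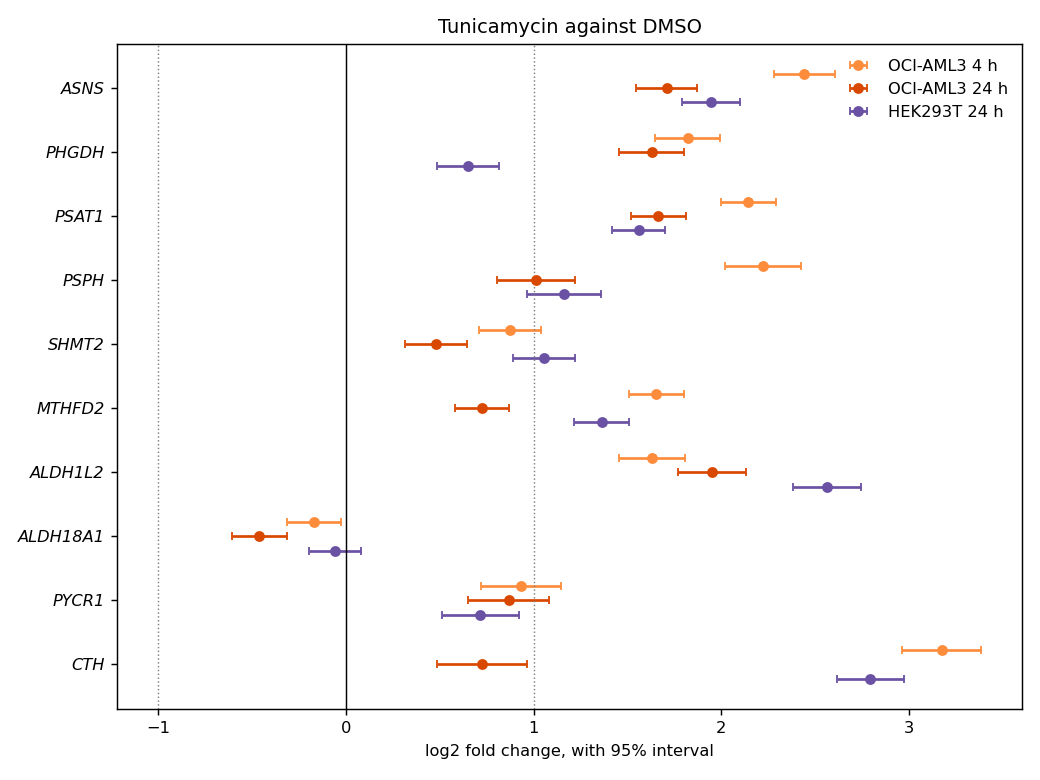
Log2 fold change of tunicamycin against DMSO for each of the 10 genes in OCI-AML3 at 4 h, OCI-AML3 at 24 h and HEK293T at 24 h; bars are 95% intervals and dotted lines mark 1 and -1. CTH spans from 0.73 to 3.18, whereas the 3 estimates of PYCR1 lie between 0.72 and 0.93 and those of ALDH18A1 are all below 0.

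Whether the response to tunicamycin differed between 4 h and 24 h in OCI-AML3 was tested with an interaction term, the log2 fold change at 24 h minus that at 4 h. It was below 0 for 7 of the 10 genes by the adjusted p (20.3% of all genes), above 0 for 1 (15.1%) and did not pass for PHGDH and PYCR1. The smaller effects at 24 h were those of CTH (-2.45, 95% interval -2.78 to -2.12, adjusted p = 1.5e-10), PSPH (-1.21, 95% interval -1.50 to -0.92, adjusted p = 1.2e-06), MTHFD2 (-0.93, 95% interval -1.13 to -0.72, adjusted p = 3.6e-07), ASNS (-0.73, 95% interval -0.96 to -0.51, adjusted p = 2.3e-05), PSAT1 (-0.48, 95% interval -0.68 to -0.28, adjusted p = 5.9e-04) and SHMT2 (-0.40, 95% interval -0.63 to -0.16, adjusted p = 0.0087). That of SHMT2 did not pass with the compared groups alone (-0.36, adjusted p = 0.066), and ran from -0.45 to -0.26 with each library left out. For ASNS and PSAT1 the DMSO level fell between the times as well, so that the tunicamycin libraries fell further than the interaction shows, from 324 ± 3.56 to 149 ± 11.5 CPM (SD, n = 3) for ASNS and from 661 ± 15.002 to 330.3 ± 24.1 CPM for PSAT1. PHGDH had 262 ± 4.96 CPM with tunicamycin at 4 h and 229 ± 25.9 CPM at 24 h, and its interaction was -0.19 (95% interval -0.43 to 0.05, adjusted p = 0.20), or -0.06 without replicate 2 of DMSO at 24 h and -0.08 without replicate 3 of tunicamycin at 24 h. That of PYCR1 was -0.06 (95% interval -0.37 to 0.24, adjusted p = 0.77). Within the serine route the ratio of PSPH to PHGDH per length thus went from 0.393 ± 0.0232 with tunicamycin at 4 h to 0.182 ± 0.0225 at 24 h, and with DMSO from 0.297 ± 0.0162 to 0.277 ± 0.0139.

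ALDH1L2 was the only one of the 10 whose log2 fold change was higher at 24 h than at 4 h, by 0.32 (95% interval 0.07 to 0.57, adjusted p = 0.043). This call was lost in 12 alternatives, 3 of them other settings (limma voom, every gene with at least 1 count and the compared groups alone) and 9 of them fits that left out a library, those without replicate 2 or 3 of DMSO at 4 h, replicate 1 or 2 of tunicamycin at 4 h, replicate 3 of DMSO or of tunicamycin at 24 h, or any HEK293T library with tunicamycin, with estimates from 0.25 to 0.33. Over all alternatives the adjusted p was 0.0013 to 0.14. Its DMSO level was also lower at 24 h, and its tunicamycin level was 167 ± 12.01 CPM at 4 h and 147 ± 14.1 CPM at 24 h, with overlapping libraries. The interaction of ALDH18A1, -0.29 (adjusted p = 0.026), was lost in 17 alternatives. Of these 6 were other settings, such as no TMM (adjusted p = 0.10), and 11 were fits that left out a library, those without DMSO replicate 2 or tunicamycin replicates 1 or 2 at 4 h, DMSO replicates 1, 2 or 3 or tunicamycin replicates 2 or 3 at 24 h, or any HEK293T library with DMSO, with estimates from -0.28 to -0.21 and an adjusted p of 0.01 to 0.13 over all alternatives.

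Whether the response at 24 h differed between the lines was tested in the same way, as the log2 fold change in HEK293T minus that in OCI-AML3. By the adjusted p this difference was above 0 for 5 of the 10 genes (15.9% of all genes), below 0 for PHGDH (10.9%), and 4 did not pass. CTH differed most, by 2.07 (95% interval 1.77 to 2.37, adjusted p = 1.2e-09). The one-carbon genes MTHFD2 (0.64, 95% interval 0.43 to 0.84, adjusted p = 5.4e-05), ALDH1L2 (0.61, 95% interval 0.36 to 0.87, adjusted p = 7.0e-04) and SHMT2 (0.58, 95% interval 0.34 to 0.81, adjusted p = 6.6e-04) all had larger effects in HEK293T. For ALDH18A1 the difference was 0.40 (95% interval 0.20 to 0.61, adjusted p = 0.0037), between a fall in OCI-AML3 and a log2 fold change near 0 in HEK293T. PHGDH differed by -0.98 (95% interval -1.22 to -0.74, adjusted p = 1.6e-06). PSAT1 (-0.10, 95% interval -0.30 to 0.10, adjusted p = 0.46) and PSPH (0.15, 95% interval -0.14 to 0.44, adjusted p = 0.46), the other genes of serine synthesis, did not pass. Neither did ASNS (0.24, 95% interval 0.01 to 0.46, adjusted p = 0.11), for which the adjusted p was 0.041 once the counts of ENSG00000284707 were added, nor PYCR1 (-0.15, 95% interval -0.45 to 0.15, adjusted p = 0.47), for which it was -0.32 (adjusted p = 0.020) without the pair of libraries that stood apart. That pair was picked by the levels of these genes, so that nothing is read from the value of PYCR1 without it. Leaving out replicate 3 of OCI-AML3 with DMSO for 24 h moved PSAT1 to -0.23 (adjusted p = 0.085) and ASNS to 0.11 (adjusted p = 0.47).

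**Figure D3:**
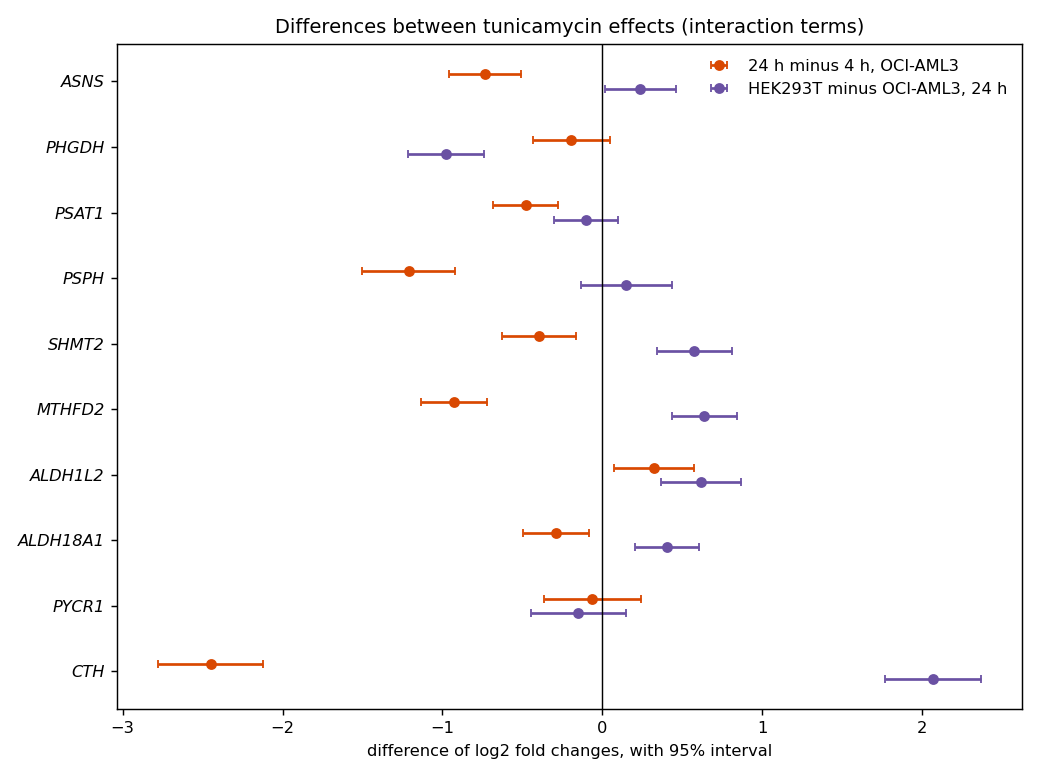
Differences between the log2 fold changes of tunicamycin, with 95% intervals: 24 h minus 4 h in OCI-AML3, and HEK293T minus OCI-AML3 at 24 h. CTH lies farthest from 0 in both, at -2.45 and 2.07, and PHGDH is the one gene whose interval for HEK293T minus OCI-AML3 lies wholly below 0.

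The controls were compared to see where these genes stood before the drug. Between DMSO for 4 h and untreated OCI-AML3 cells none of the 10 genes passed, and neither did any of all 14012 genes (0.0%) with edgeR, with 1160 of them at an unadjusted p under 0.05. limma voom called 0 genes, and the DESeq2 Wald test called 8 higher and 8 lower, with none of the 10 among them. With every gene of at least 1 count 56 were higher and 39 lower, and without replicate 1 of DMSO at 4 h 21 were higher and 5 lower. Without both libraries that stood apart 87 were higher and 73 lower, PYCR1 among the latter (adjusted p = 0.015). The DMSO library left out was the highest of its group for PYCR1, which lowers the estimate by construction, so that nothing is read from this call. With edgeR and all libraries only PYCR1 of the 10 had an unadjusted p under 0.05, with a log2 fold change of -0.29 (adjusted p = 0.53). Between DMSO at 24 h and at 4 h PSAT1 fell by 0.52 on the log2 scale (adjusted p = 3.8e-06), ALDH1L2 by 0.51 (adjusted p = 9.9e-05) and ASNS by 0.39 (adjusted p = 5.3e-04), 3 of 10 where 21.6% of all genes were lower. SHMT2 rose by 0.21 (adjusted p = 0.035; 21% of all genes were higher), a call lost in 6 alternatives, among them those without replicate 2 of DMSO at 4 h (0.18), replicate 3 of DMSO at 4 h (0.17) or replicate 2 of DMSO at 24 h (0.18). CTH did not pass (0.22, adjusted p = 0.17), but ranged from 0.14 to 0.37 with each library left out. Its adjusted p was as low as 0.030 over all alternatives.

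With DMSO at 24 h, 7 of the 10 genes were higher in HEK293T than in OCI-AML3 (40.5% of all genes) and SHMT2 was lower (42.2%). The largest difference was that of PHGDH, 5.39-fold (95% interval 4.77 to 6.10, adjusted p = 1.2e-17). CTH was 2.81-fold (95% interval 2.41 to 3.27, adjusted p = 8.2e-12), ASNS 2.79-fold (95% interval 2.49 to 3.12, adjusted p = 3.4e-14), PYCR1 2.58-fold (95% interval 2.22 to 2.99, adjusted p = 2.6e-11), PSAT1 2.36-fold (95% interval 2.13 to 2.60, adjusted p = 1.1e-13) and ALDH18A1 2.20-fold (95% interval 1.99 to 2.43, adjusted p = 4.3e-13) higher in HEK293T. PSPH was 1.46-fold (95% interval 1.26 to 1.69, adjusted p = 3.5e-05) higher. The level of SHMT2 in HEK293T was lower by 0.86 on the log2 scale (fold 0.551, 95% interval 0.491 to 0.618, adjusted p = 1.0e-09). MTHFD2 (-0.09, adjusted p = 0.24) and ALDH1L2 (0.03, adjusted p = 0.80) did not pass. This comparison depends on scaling, since without TMM the median log2 fold change of all genes moved from -0.01 to 0.33, and MTHFD2 (0.25, adjusted p = 4.2e-04) and ALDH1L2 (0.37, adjusted p = 0.0029) passed. MTHFD2 went the other way with every gene of at least 1 count, where it was among the 2 genes lower in HEK293T. Its estimates ran from -0.27 to 0.25 over all alternatives. RPMI contains asparagine and proline and DMEM contains neither, and the medium cannot be told apart from the line.

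Per kilobase of the canonical transcript, the order of the 10 genes differed between the lines. In OCI-AML3 with DMSO for 24 h SHMT2 was highest, at 187 CPM per kilobase, followed by MTHFD2 (58.2) and PSAT1 (47.3), and ALDH1L2 (5.12) and CTH (2.78) were lowest. In HEK293T with DMSO for 24 h PHGDH was highest (214), followed by PSAT1 (111) and SHMT2 (103), and CTH (7.78) and ALDH1L2 (5.21) were lowest. With tunicamycin PSAT1 had the highest level in OCI-AML3 at 4 h (299.8), next to SHMT2 (297), and PHGDH (336) and PSAT1 (328) were highest in HEK293T. The summed level of the 10 genes was 1181 ± 88.7 CPM with DMSO and 3316 ± 42.5 CPM with tunicamycin at 4 h. At 24 h it was 1132 ± 41.7 and 2107 ± 162 CPM in OCI-AML3, and 1749.8 ± 12.8 and 3872 ± 35.5 CPM in HEK293T.

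**Figure D4:**
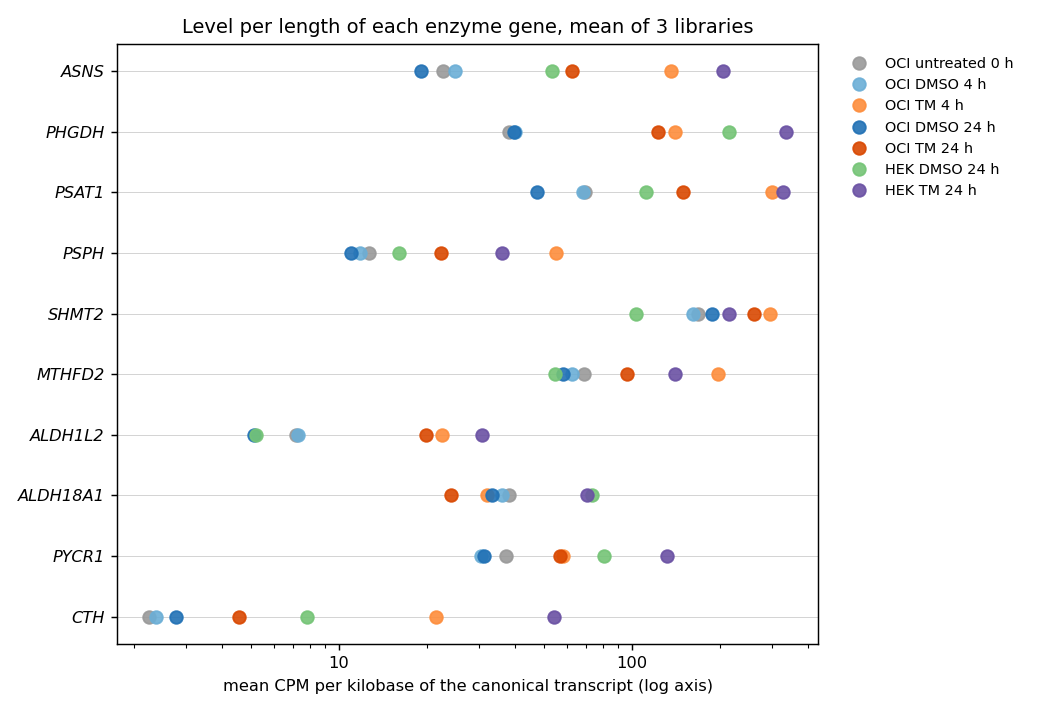
Mean level of each gene (n = 3) in CPM per kilobase of its canonical transcript, on a log axis, in the 7 groups. With DMSO for 24 h SHMT2 is at 187 in OCI-AML3 and 103 in HEK293T, whereas PHGDH is at 39.7 and 214.

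Several of the 10 enzymes have a counterpart that does the same reaction in another compartment or from another gene. These were described beside them, with MTHFD1L and CBS, which do another step of the same route. SHMT1, the cytosolic serine hydroxymethyltransferase, had log2 fold changes of -0.06 (adjusted p = 0.51), -0.40 (adjusted p = 1.8e-05) and -0.21 (adjusted p = 0.014) in OCI-AML3 at 4 h and 24 h and in HEK293T. The ratio of SHMT2 to SHMT1 per length was 5.58 ± 0.307 with DMSO and 10.7 ± 0.495 with tunicamycin at 4 h, 5.58 ± 0.570 and 10.2 ± 0.752 at 24 h, and 3.04 ± 0.0431 and 7.33 ± 0.246 in HEK293T, with no overlap. MTHFD1, the cytosolic trifunctional enzyme, fell by 0.16 (adjusted p = 0.028) and 0.53 (adjusted p = 1.7e-07) on the log2 scale in OCI-AML3 and was at -0.12 (adjusted p = 0.13) in HEK293T. Per length, MTHFD2 was below MTHFD1 in every DMSO group on average and above it in every tunicamycin group, at 0.895 ± 0.0997 against 3.15 ± 0.0891 at 4 h, 0.981 ± 0.111 against 2.33 ± 0.239 at 24 h, and 0.499 ± 0.0267 against 1.39 ± 0.0367 in HEK293T.

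MTHFD1L, which releases formate in mitochondria and so lies on the same side as MTHFD2, rose by 0.51 (adjusted p = 1.9e-06), 0.33 (adjusted p = 4.4e-04) and 0.79 (adjusted p = 2.2e-09). MTHFD2L, the paralog of MTHFD2, was low, at 3.73 to 18.7 CPM on average, with log2 fold changes of -0.49 (adjusted p = 0.040), 0.48 (adjusted p = 0.0499) and -0.01 (adjusted p = 0.99). ALDH1L1, the cytosolic counterpart of ALDH1L2, did not pass the filter on low counts. It had 0 counts in every OCI-AML3 library and 0.257 and 0.396 CPM in HEK293T with DMSO and tunicamycin. PYCR3, which also reduces pyrroline-5-carboxylate, fell by 0.48 (adjusted p = 0.0036), 0.73 (adjusted p = 7.2e-05) and 0.43 (adjusted p = 0.013) on the log2 scale. CBS, the enzyme before CTH in transsulfuration, was at 0.44 (adjusted p = 9.1e-06), 0.26 (adjusted p = 0.0021) and 0.16 (adjusted p = 0.069).

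**Figure D5:**
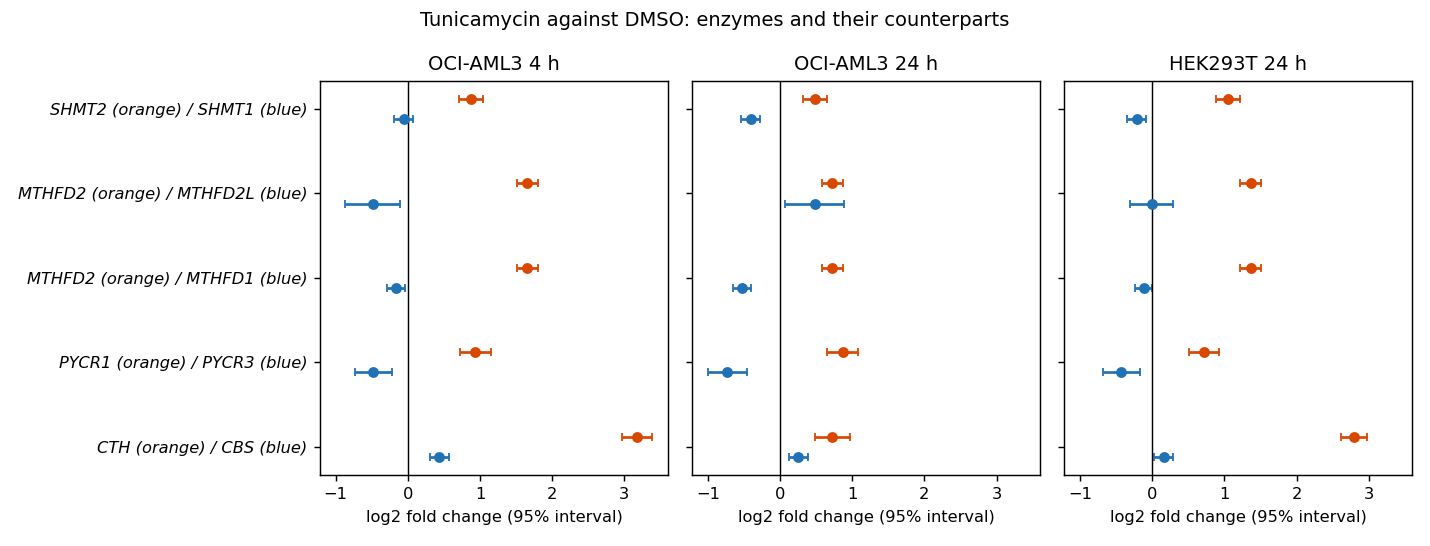
Log2 fold change of tunicamycin against DMSO, with 95% intervals, for 5 pairs of genes in the 3 comparisons. An enzyme of the set (orange) is paired with a counterpart (blue), or CTH with CBS (blue), the enzyme before it. The orange interval lies above the blue one in each pair and comparison but MTHFD2 and MTHFD2L at 24 h in OCI-AML3. There the estimates were 0.73 and 0.48.

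The other genes of these pathways were counted by list. Of 30 listed partners in serine, glycine and folate metabolism 24 were tested, and none passed both thresholds in a tunicamycin comparison. By the adjusted p alone 5, 3 and 3 of them rose and 8, 11 and 4 fell in OCI-AML3 at 4 h and 24 h and in HEK293T. Over all genes tested 18.5%, 23.5% and 12.6% were higher and 18.9%, 27.7% and 13.1% lower by this measure, which is the background for each of these lists. Of 8 partners in proline and arginine metabolism 6 were tested, with 0 past both thresholds, 0 higher in any of the comparisons and 2, 3 and 2 lower by the adjusted p. Of 11 in the methionine cycle and transsulfuration 7 were tested, and 1 passed both, MAT2A, the synthase of S-adenosylmethionine. It fell by 1.42 at 4 h (adjusted p = 4.4e-14), where 206 of all 14012 genes tested fell past both thresholds. By the adjusted p alone 2, 3 and 0 of this list were higher and 1, 2 and 0 lower. MAT2A had 352 ± 2.68 CPM with DMSO and 131 ± 9.36 CPM with tunicamycin at 4 h, and its log2 fold change was 0.16 (adjusted p = 0.039) at 24 h and -0.12 (adjusted p = 0.16) in HEK293T.

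Among 14 partners of asparagine, glutamine and glutamate 12 were tested, and 3 rose past both thresholds in each comparison (3.45%, 4.05% and 1.58% of all genes), with 4, 3 and 3 higher and 1, 5 and 2 lower by the adjusted p. BCAT1, the cytosolic branched-chain aminotransferase, rose in all, by 1.46 (adjusted p = 2.4e-09), 1.73 (adjusted p = 6.0e-10) and 1.25 (adjusted p = 1.3e-08). GPT2, the mitochondrial alanine aminotransferase, rose by 1.40 (adjusted p = 1.6e-12) at 4 h and 1.23 (adjusted p = 3.2e-11) in HEK293T and was at 0.11 (adjusted p = 0.23) at 24 h in OCI-AML3. ASS1, argininosuccinate synthase, rose by 0.89 (adjusted p = 7.3e-08), 2.05 (adjusted p = 5.9e-14) and 1.98 (adjusted p = 4.0e-13). GOT1, the cytosolic aspartate aminotransferase, rose by 2.34 (adjusted p = 1.4e-07) and 1.84 (adjusted p = 1.1e-04) in OCI-AML3 from a very low level, 0.854 to 4.33 CPM at 4 h, and was at 60.9 CPM with DMSO and 66.2 CPM with tunicamycin in HEK293T (0.12, adjusted p = 0.49).

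Of 12 regulators listed, 9, 4 and 7 rose past both thresholds, against 3.45%, 4.05% and 1.58% of all genes. By the adjusted p alone 10 were higher in each comparison, 0 were lower at 4 h and 1 was lower in each of the others, MYC at 24 h in OCI-AML3 (-0.41, adjusted p = 3.6e-06) and ATF5 in HEK293T (-0.39, adjusted p = 0.016). In OCI-AML3 ATF5 went the other way and rose past both thresholds at 4 h and at 24 h. The mRNA of ATF4 rose by 1.01 (adjusted p = 2.4e-09) at 4 h, 0.90 (adjusted p = 1.3e-08) at 24 h and 0.59 (adjusted p = 1.5e-05) in HEK293T. PPP1R15A, whose product helps to dephosphorylate eIF2α, rose by 2.39 (adjusted p = 3.5e-16), 0.33 (adjusted p = 0.0017) and 1.21 (adjusted p = 2.4e-10). TRIB3, a pseudokinase that inhibits ATF4, rose by 4.64 (adjusted p = 6.8e-21), 1.99 (adjusted p = 3.8e-15) and 2.53 (adjusted p = 1.8e-16). DDIT3, which codes for CHOP, rose by 5.36 (adjusted p = 9.4e-20), 4.33 (adjusted p = 3.8e-18) and 3.69 (adjusted p = 1.2e-16). ATF3, which codes for a transcriptional repressor, rose by 3.66 (adjusted p = 6.7e-14), 0.56 (adjusted p = 0.018) and 2.24 (adjusted p = 3.3e-13).

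The pattern of each gene over the 15 OCI-AML3 libraries was compared with that of all other genes by Pearson's r of log2 CPM, as a description. These libraries share the same drug and times, so that high values of r are common. The 3 nearest genes outside the set were SLC3A2 (0.992), TXNDC11 (0.990) and IFRD1 (0.989) for ASNS. For PHGDH they were AARS1 (0.994), CDK2AP2 (0.991) and DDIT3 (0.990), and for PSAT1 IFRD1 (0.995), SLC35B1 (0.992) and MIS12 (0.990). For PSPH they were SLC31A1 (0.990), CARS1 (0.990) and JDP2 (0.988). AARS1, CARS1 and, for SHMT2, SARS1 code for enzymes that charge tRNAs with alanine, cysteine and serine. For SHMT2 the genes were SARS1 (0.985), MYDGF (0.974) and EIF1 (0.971), and for MTHFD2 G0S2 (0.995), JDP2 (0.987) and TUBE1 (0.986). For ALDH1L2 they were DNAJC3 (0.995), HYOU1 (0.991) and SEL1L (0.989), genes of protein folding and degradation in the ER. For PYCR1 they were MYDGF (0.970), ATF4 (0.969) and SLC52A2 (0.961), and for CTH RNF41 (0.987), SIAH2 (0.987) and PTGER4 (0.986). For ALDH18A1 they were PRPS1 (0.978), PARP1 (0.971) and HSP90AB1 (0.969). Within the set ASNS and PSAT1 were most alike (0.993), followed by PSPH and MTHFD2 (0.989), and ALDH18A1 had none of the other 9 genes among its 100 nearest.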

How the data were processed

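RNA with poly(A) tails was sequenced in read pairs. The authors trimmed the reads with seqtk, mapped them to GRCh38 by STAR and used RSEM and an Ensembl annotation for counting; the strand setting is not given in the sources used here. The deposited values are RSEM expected counts of 60671 genes in 21 libraries, neither scaled nor filtered, with 3.54 to 4.22% of the values of a library not whole. RSEM divides reads between genes that share sequence. Values were rounded.

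The 14012 genes that reached 1 CPM in 8 or more libraries were scaled by TMM (factors 0.891 to 1.15). The quasi-likelihood test of edgeR 4.0.16 (R 4.3.3) used 7 group means, without a block for replicate numbers, and p-values were adjusted by Benjamini-Hochberg over all 14012. The study's methods used limma voom with these thresholds and a like filter, and it was run as an alternative. A count of 0 allows 3 counts, 0.137 to 0.231 CPM, for counting error only, and each of the 10 genes lay above this in every library. No pair of replicates was identical.

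The 10 genes, the lists of partners, regulators and markers, and the tests were chosen with earlier results of these data known. Named are the 10 genes, their counterparts, MTHFD1L and CBS, and the 3 genes most like each of the 10. Of each list, at most the 4 genes farthest from 0 among those past both thresholds are named too. ATF4, MYC and ATF5 were named outside this rule, after their values were seen. A gene of the partner lists is not reported here or included in their counts. Symbols, positions and transcript lengths are from GENCODE v44 on GRCh38, and promoters from RefSeq (GRCh38.p14). Alternatives were limma voom 3.58.1, the DESeq2 1.42.0 Wald test, DESeq2 size factors, no TMM, every gene with at least 1 count, 1 CPM in at least 3 libraries, the compared groups alone, a replicate block and each library left out. Added after seeing the data were the ASNS counts with those of its overlapping lncRNA, and a fit without the 2 libraries that stood apart.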

Additional observations from a re-analysis of the deposited data

Results flagged for a closer look

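In 14 cases a test found that the effect of tunicamycin on a gene of the set differed between times or lines (edgeR's quasi-likelihood test of the interaction, with 3 libraries a group). Between 24 h and 4 h in OCI-AML3 the log2 fold change was smaller at 24 h, with differences of -2.45 for CTH, -1.21 for PSPH, -0.93 for MTHFD2, -0.73 for ASNS, -0.48 for PSAT1 and -0.40 for SHMT2. ALDH18A1 differed by -0.29 and ALDH1L2 by 0.32, and these were lost in 17 and 12 alternatives, as that of SHMT2 was with the compared groups alone. Between HEK293T and OCI-AML3 at 24 h the differences were 2.07 for CTH, 0.64 for MTHFD2, 0.61 for ALDH1L2, 0.58 for SHMT2, 0.40 for ALDH18A1 and -0.98 for PHGDH. The lines also differ in medium and in their level with DMSO, of which the former cannot be told apart from the line and the part of the latter was not tested.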

How the results depend on the processing

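The rise of the 9 genes in the 3 tunicamycin comparisons kept its direction and its side of the adjusted p threshold in every alternative run, and so did the fall of ALDH18A1 at 24 h. With DESeq2, without TMM, with the replicate block or without 1 library (0 to 1), 1 of the 10 genes, ALDH18A1, was lower at 4 h. Correlations of same-numbered deviations were low, from -0.14 to 0.13. Yet for each tunicamycin library of HEK293T, and for some of OCI-AML3, the DMSO library of the same number was the closest of its group. Whether the numbers pair the samples was thus not settled. Of the calls on the 10 genes, the block changed only that of ALDH18A1 at 4 h (adjusted p = 0.0498). Between DMSO at 24 h and 4 h, 0 genes were higher without TMM, with every gene of at least 1 count, with the compared groups alone and without some libraries (0 to 1), and 5 were lower without TMM. Without TMM 4611 of all 14012 genes were lower there, against 3026 with it. The median log2 fold change of all genes was then -0.14. Between the lines with DMSO 2 were lower with every gene of at least 1 count, SHMT2 and MTHFD2, where 7750 of all 31899 genes were lower. In the interaction of time 0 genes were higher with limma voom, every gene of at least 1 count, the compared groups alone and some libraries left out (0 to 1). Without the 2 libraries that stood apart, 1 gene (PYCR1) was lower with DMSO at 4 h than untreated, and 2 had a smaller effect in HEK293T. Since these libraries were picked by the levels of the 10 genes, nothing is read from these counts.

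Direction turned only for log2 fold changes near 0. For DMSO at 24 h against 4 h PHGDH was at 0.027 with DESeq2, 0.027 with its size factors, 0.0063 with the compared groups alone and 0.064 without both libraries (-0.11 to 0.063 with each library left out), and PYCR1 at -0.088 without TMM (-0.042 to 0.16). Between the lines MTHFD2 was at 0.25 without TMM (-0.11 to 0.0022), below the median of all genes of 0.33, and ALDH1L2 at -0.020 with DESeq2, -0.020 with its size factors, -0.16 with every gene and -0.034 with 3 libraries. Over all alternatives the lowest value of MTHFD2 was -0.27. The time interaction of PYCR1 was 0.025 without TMM (-0.16 to 0.093), and the line interaction of PSPH ran from -0.011 to 0.20 with each library left out. For DMSO at 4 h against untreated the ranges were -0.082 to 0.017 (PSAT1), -0.12 to 0.023 (SHMT2) and -0.044 to 0.16 (ALDH1L2). The cause of these moves was not tested. With 3 libraries a group, small differences are limited by the spread of replicates.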
